A study of Homo sapiens with 8 samples.

Results

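The C/EBP (CCAAT/enhancer-binding protein) genes CEBPA, CEBPB, CEBPD and CEBPG are described here across 8 RNA sequencing libraries of LK2, a cell line labelled as lung squamous cell carcinoma. They are 4 of the 26760 genes of the count table and were taken by name. The family was chosen by the level of CEBPD, which responds in opposite directions in the 2 expression systems of the study, so CEBPD is given as a description with no test. All 4 passed the filter on low counts, as did 12303 genes in all.

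All cells were LK2 kept in RPMI-1640 medium with 10% fetal bovine serum. There were 4 groups of 2 libraries. In the constitutive system, cells overexpressed DNp63, the N-terminally truncated isoform of the p53 relative p63 found in basal epithelia, or GFP as the control. Replicate 1 of both groups carried the vector pLEX_306 and replicate 2 carried pLEX_307, so the vector and the replicate number cannot be told apart within a group. In the inducible system, all cells carried pLIX_403-DNp63, which is switched on by doxycycline. These cells were kept for 6 days with the drug at 2 µg/ml (induced) or without it (uninduced). Only induced cells received doxycycline, so effects of the drug and of DNp63 cannot be told apart in that system. Separate cultures behind the 2 libraries of a group are not named in the labels, nor whether the lines were clones or pools, so p-values measure only the spread between these libraries, which may be technical.

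C/EBP proteins bind DNA as dimers through a basic region and a leucine zipper, and they pair with each other and with related zipper proteins. C/EBP-alpha drives differentiation and growth arrest in fat, liver, myeloid and lung epithelial cells, while C/EBP-beta and C/EBP-delta are the members switched on by interleukin-6, inflammatory signals and glucocorticoids. C/EBP-gamma has no activation domain of its own and works with partners such as ATF4, the activator of genes that respond to amino acid shortage.

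Promoter sequences are shown for CEBPB and CEBPG, whose levels moved together among the libraries. Any link between these sequences and that movement was not tested. RefSeq promoter windows (GRCh38.p14, 250 bases before to 50 after a transcript start) matched 3 of the 4 genes, CEBPA, CEBPB and CEBPG, with 5 windows in all. The stretches shown are the 120 bases before a start on the + strand, chr20:50190710-50190829 for CEBPB and chr19:33373993-33374112 for CEBPG. Capitals mark the TATA box of CEBPB and, in CEBPG, the letters of an amino acid response element, the kind of sequence that ATF4 and C/EBP dimers bind.
CEBPB: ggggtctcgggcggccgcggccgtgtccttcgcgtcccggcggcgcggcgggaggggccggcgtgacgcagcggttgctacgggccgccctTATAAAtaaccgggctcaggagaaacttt
CEBPG: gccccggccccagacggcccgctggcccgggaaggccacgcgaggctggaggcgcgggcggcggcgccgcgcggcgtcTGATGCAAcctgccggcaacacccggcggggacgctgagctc

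The TATA box (TATAAA) lay at -29 to -24 from the CEBPB start, and 11.5% of 35116 promoter windows of the same length held one on either strand. The amino acid response element (TGATGNAA) lay at -42 to -35 from the CEBPG start, and 3.62% of windows held one. The windows were searched on both strands for 7 motifs, also the C/EBP site TTNCGNAA (in 2.57% of windows), the cyclic AMP response element TGACGTCA (1.85%), the CCAAT box (34.6%), the STAT site TTCNNNGAA (7.66%) and a p53 family site made of paired CATG cores (0.373%). The CEBPA window held a TATA box at -30 to -25, and the other CEBPG window held 2 CCAAT boxes on the reverse strand. The CEBPB windows overlap and shared 1 CCAAT box, which lay at -245 to -241 or at 3 to 7 depending on the start. The search found no amino acid response element in the CEBPB windows or in the other CEBPG window. A match is a run of letters in a window and no measurement of binding.

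Library totals were 2758158 to 10372248 counts, and 3 counts corresponded to 0.292 to 1.11 CPM (counts scaled to a common effective library size). TP63, the gene supplied by the vectors, was at 1850 and 3816 CPM in DNp63 libraries, 0.739 and 1.91 in GFP libraries, 412 and 422 in induced libraries, and 12.7 and 14.8 in uninduced libraries. The 11 squamous markers, TP63 and SOX2 among them, summed to 3546 to 5274 CPM in DNp63, 363 to 588 in GFP, 848 to 910 in induced and 597 to 634 in uninduced libraries. SOX2 was present in every library, at 68.3 and 96.4 CPM in DNp63, 278 and 517 in GFP, 337 and 278 in induced, and 575 and 537 in uninduced libraries. DSC3 was at 24.2 to 101 CPM throughout. KRT14 had no count in any library, and KRT5 did not exceed 0.635 CPM outside the DNp63 libraries (398 and 18.8 CPM). The 7 epithelial markers summed to 3529 to 6060 CPM. Among them EPCAM stood at 361 to 458 CPM and CDH1 at 112 to 201 CPM over the libraries, while CLDN4 stood at only 1.71 to 5.54 CPM. Of 13 myeloid and granulocyte markers, 3 (CSF3R, ELANE and CD163) had no count, and their summed level was 4.57 to 5.24 CPM in DNp63, 2.75 to 4.06 in GFP, 0.494 to 2.75 in induced and 2.04 to 3.02 in uninduced libraries. The 8 adipocyte and hepatocyte markers summed to at most 6.35 CPM in any library. The 11 fibroblast, endothelial and lymphocyte markers, of which 6 had no count, summed to 9.757 to 30.45 CPM. COL1A1 among them stood at 8.275 to 29.09 CPM.

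CEBPD, the inflammation-induced member of the family, was lower with constitutive DNp63 and higher with induced DNp63. It stood at 158 and 181 CPM in DNp63 libraries, against 556 and 341 CPM in GFP libraries. It stood at 411 and 331 CPM in induced libraries, against 179 and 191 CPM in uninduced libraries. Both DNp63 libraries were below both GFP libraries, and both induced libraries were above both uninduced ones. Because CEBPD was chosen for this pattern, the separation is a description only, and the share of all genes that separate in this way is not given. In bulk RNA, fewer cells that express a gene and less RNA per cell cannot be told apart.

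The fitted log2 fold change of CEBPD was -1.40 ± 0.24 (SE) for DNp63 over GFP, which is 0.379-fold. It was 1.01 ± 0.24 for induced over uninduced, which is 2.01-fold. The difference between the systems (induced effect minus constitutive effect) was 2.41 ± 0.34. With each library left out in turn, the DNp63 over GFP value lay between -1.73 and -1.01, the induced value between 0.84 and 1.15, and the difference between 2.02 and 2.73. Within each vector the DNp63 library was lower than the GFP library, at 0.285-fold for pLEX_306 and 0.531-fold for pLEX_307.

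By group mean, CEBPD was highest in GFP cells at 449 ± 152 CPM (SD, n = 2), then in induced cells at 371 ± 56.8, uninduced cells at 185 ± 8.23 and DNp63 cells at 170 ± 16.0. The ranges of the GFP and induced libraries overlapped, as did those of the uninduced and DNp63 libraries, and no library of the first pair of groups fell into the range of the second. For CEBPD the control groups of the systems therefore stood apart. Uninduced cells, at 179 and 191 CPM, were below GFP cells, at 556 and 341 CPM, with a log2 difference of -1.28 ± 0.24. This value and the DNp63 value rest on the same GFP libraries.

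**Figure D1:**
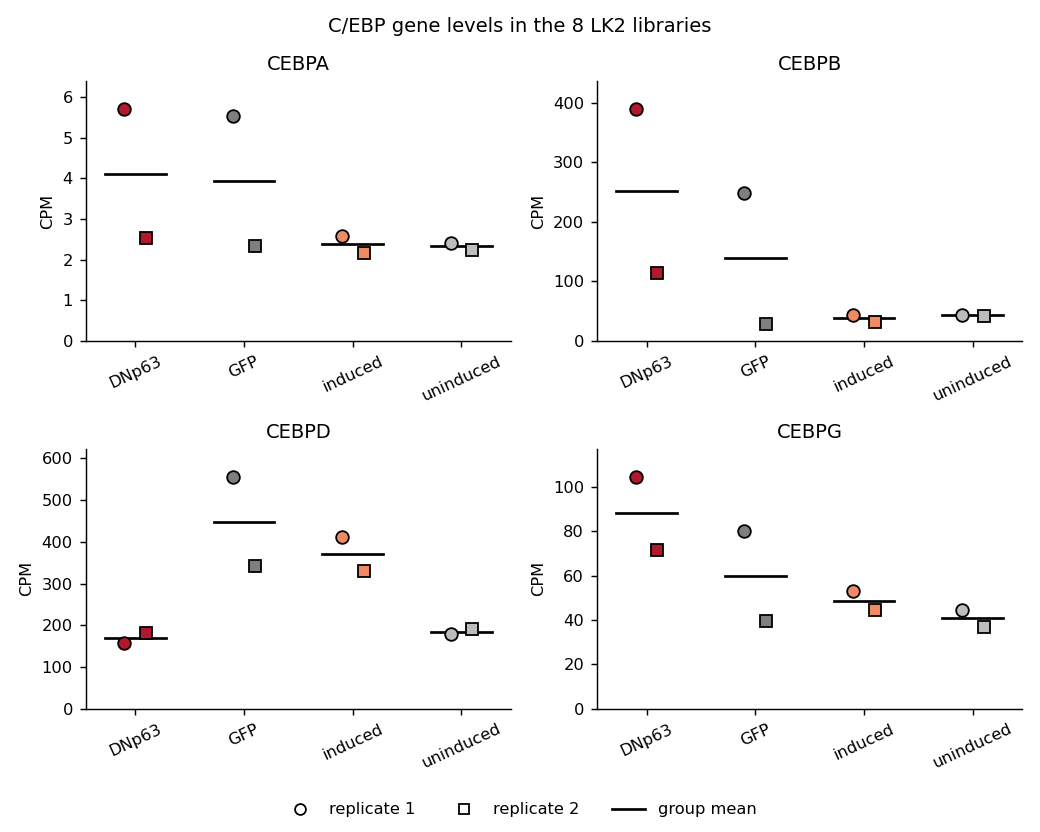
Level of each C/EBP gene in CPM (linear axis from 0, scaled per panel) in the 8 libraries, with circles for replicate 1, squares for replicate 2 and bars for group means. CEBPD, chosen for this pattern, separates the groups within each system. It lies at 158 and 181 CPM in DNp63, against 556 and 341 in GFP, and at 411 and 331 in induced, against 179 and 191 in uninduced libraries. CEBPB and CEBPG are higher in the pLEX_306 than in the pLEX_307 library of both constitutive groups.

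CEBPB, CEBPG and CEBPA, which were not chosen for their own values, did not pass the test in either system in the fit without a replicate block. Of these 3 genes, edgeR's quasi-likelihood test called 0 for DNp63 against GFP (adjusted p below 0.05), where 8.16% of all tested genes were called, 4.17% higher and 3.99% lower. It called 0 for induced against uninduced (background 0.284%, with 0.236% higher and 0.0488% lower), 0 for the difference between systems (0.545%, with 0.293% higher and 0.252% lower) and 0 for uninduced against GFP (0.00813%). In each of the 4 comparisons 0 of the 3 had an unadjusted edgeR p below 0.05. In the same order, 2834, 743, 1496 and 1120 of the 12303 tested genes had such a p. DESeq2 also called 0 of the 3 in each, where it called 1221, 110, 259 and 57 of the 12303 genes. With only 3 genes, these counts of 0 say little about the members.

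CEBPB is an activator of inflammatory and acute phase genes. Its level differed more between the 2 libraries of each constitutive group than between the DNp63 and GFP group means. Within each vector, however, CEBPB was higher in the DNp63 than in the GFP library. It stood at 390 and 115 CPM in DNp63 libraries, against 249 and 27.9 CPM in GFP libraries. It stood at 43.2 and 32.3 CPM in induced libraries, against 43.5 and 42.5 CPM in uninduced libraries. In both constitutive groups the library of pLEX_306 was the higher one, by 3.40 times in DNp63 cells and 8.90 times in GFP cells, so the DNp63 and GFP ranges overlapped. The ratio of replicate 1 to replicate 2 was 1.34 in induced cells and 1.02 in uninduced cells.

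The log2 fold change of CEBPB for DNp63 over GFP was 0.88 ± 0.74 (SE, edgeR adjusted p = 0.543), with a 95% interval of -0.58 to 2.34. Within pLEX_306 the DNp63 library was 1.57 times the GFP library, and within pLEX_307 it was 4.10 times. In a fit with the replicate number as a block, which in the constitutive system is the vector, the log2 fold change was 1.30 ± 0.28 and passed the test (edgeR adjusted p = 0.0105). In the fit without a block, the log2 fold change was 2.03 with both pLEX_306 libraries left out and 0.64 with both pLEX_307 libraries left out. Omitting a single constitutive library leaves the vectors unmatched between DNp63 and GFP cells, and the value then moved widely. Without GFP replicate 1 the log2 fold change was 3.16 and passed the test (edgeR adjusted p = 0.0191), without DNp63 replicate 1 it was -0.25, and without GFP replicate 2 it was -0.0028. For induced over uninduced it was -0.18 ± 0.77 (edgeR adjusted p = 0.996), with a 95% interval of -1.69 to 1.33. The difference between systems was -1.06 ± 1.07 (edgeR adjusted p = 0.757), with single-library omissions giving -3.34 to 0.07. Uninduced minus GFP was -1.67 ± 0.76 (edgeR adjusted p = 0.561), and it was 0.62 without GFP replicate 1.

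CEBPG, the partner of ATF4, followed CEBPB at a smaller scale. It stood at 105 and 71.8 CPM in DNp63 libraries, against 80.2 and 39.4 CPM in GFP libraries. It stood at 53.1 and 44.5 CPM in induced libraries, against 44.5 and 37.0 CPM in uninduced libraries. The pLEX_306 library was again the higher one, by 1.46 times in DNp63 cells and 2.04 times in GFP cells, and the DNp63 and GFP ranges overlapped. The DNp63 library was 1.30 times the GFP library within pLEX_306 and 1.82 times within pLEX_307.

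The log2 fold change of CEBPG for DNp63 over GFP was 0.57 ± 0.32 (SE, edgeR adjusted p = 0.321), with a 95% interval of -0.05 to 1.19. It was 0.86 with both pLEX_306 libraries left out and 0.37 with both pLEX_307 libraries left out. Without GFP replicate 1 it was 1.15 and passed the test (edgeR adjusted p = 0.0446), and over all single-library omissions it ranged from 0.12 to 1.15. For induced over uninduced it was 0.27 ± 0.32 (edgeR adjusted p = 0.996), with an interval of -0.35 to 0.88. The difference between systems was -0.31 ± 0.45 (edgeR adjusted p = 0.847), and it was 0.15 without GFP replicate 2. Uninduced minus GFP was -0.54 ± 0.32 (edgeR adjusted p = 0.656), and it was 0.04 without GFP replicate 1.

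CEBPA, the differentiation factor, was near the lower end of what these libraries could measure, with 11 to 23 counts each. It stood at 5.71 and 2.52 CPM in DNp63 libraries, against 5.54 and 2.33 CPM in GFP libraries. It stood at 2.59 and 2.16 CPM in induced libraries, against 2.42 and 2.24 CPM in uninduced libraries. The pLEX_306 libraries were the highest 2 of the 8, with 20 counts in DNp63 cells and 15 in GFP cells. The log2 fold change for DNp63 over GFP was 0.09 ± 0.61 (edgeR adjusted p = 0.952), with a 95% interval of -1.10 to 1.29, and that for induced over uninduced was 0.05 ± 0.60 (edgeR adjusted p = 0.998), with an interval of -1.13 to 1.23. The difference between systems was -0.04 ± 0.86 (edgeR adjusted p = 0.994). The signs of these 3 values turned when single libraries were left out, and at this depth the intervals still include 2-fold changes in either direction.

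The remaining C/EBP names gave no call. CEBPE, the granulocyte member, had 0 counts in all 8 libraries. CEBPZ, which shares the family name but not its zipper structure, stood at 22.2 to 37.4 CPM, with log2 fold changes of 0.07 ± 0.25 for DNp63 over GFP and -0.35 ± 0.24 for induced over uninduced, neither called. The antisense gene CEBPB-AS1 stood at 0.212 to 2.72 CPM and CEBPA-AS1 had at most 6 counts. How counting treated strand is not stated in the labels or processing notes. Where the genes overlap, reads of CEBPB and CEBPA may therefore not have been separated from those of their antisense partners.

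**Figure D2:**
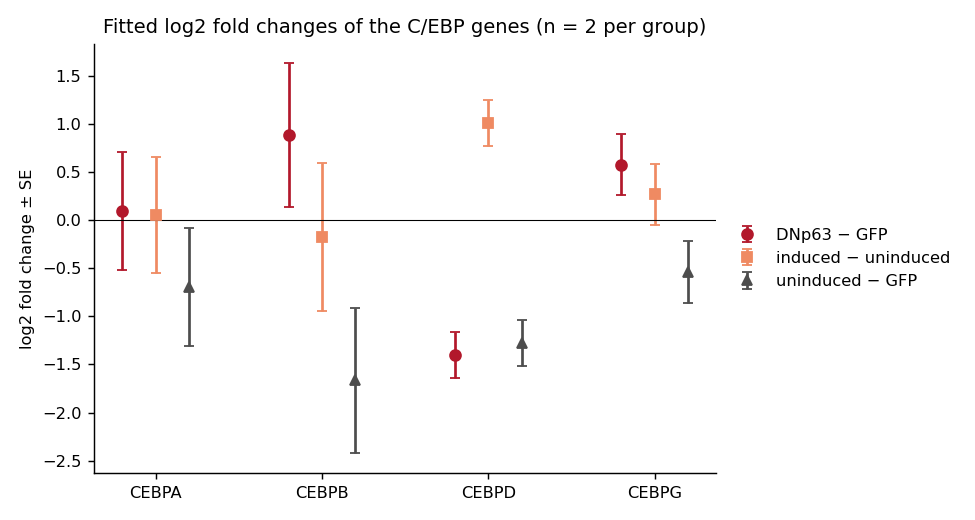
Fitted log2 fold changes with standard errors (n = 2 libraries per group) of the 4 C/EBP genes for DNp63 minus GFP, induced minus uninduced and uninduced minus GFP. CEBPD lies at -1.40, 1.01 and -1.28, while the error bars of CEBPB span 0.74 to 0.77 on either side of its values. The CEBPD values are a description, and both comparisons with GFP share the GFP libraries.

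Among the 4 genes, the spread within groups (SD of log2 CPM) was 1.28 for CEBPB, 0.560 for CEBPA, 0.428 for CEBPG and 0.283 for CEBPD. Pearson's r of log2 CPM over the 8 libraries was 0.955 for CEBPB with CEBPG, 0.926 for CEBPA with CEBPB and 0.868 for CEBPA with CEBPG. Without the 2 libraries of pLEX_306 these were 0.860, 0.555 and 0.696 over 6 libraries. CEBPD had r of 0.129 with CEBPA, -0.122 with CEBPB and -0.071 with CEBPG over the 8 libraries. Without the pLEX_306 libraries these were 0.027, -0.577 and -0.142 over 6 libraries. These correlations describe libraries that share groups and vectors.

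The libraries in which CEBPB and CEBPG were high were also high in genes of the amino acid stress response. For the 23 tested genes of an ATF4 and C/EBP-gamma list, which includes CEBPG, the median log2 difference between replicate 1 and replicate 2 was 0.87 in DNp63 cells and 1.29 in GFP cells, with 21 of 23 positive in each. The same median was -0.06 in induced cells (7 of 23 positive) and 0.004 in uninduced cells (12 of 23 positive). Over all 12303 tested genes the medians were -0.006, -0.003, -0.004 and 0 in the 4 groups in that order. The numbers of positive values among them were 6086, 6113, 6080 and 6148. DDIT3, which encodes the stress-induced C/EBP protein CHOP, stood at 245 and 123 CPM in DNp63 libraries, 119 and 24.6 in GFP libraries, 35.7 and 31.9 in induced libraries, and 23.1 and 25.3 in uninduced libraries. TP63 did not share this order, at 1850 CPM in the pLEX_306 library and 3816 CPM in the pLEX_307 library of DNp63 cells. Whether the vector or another difference between these libraries set the levels was not tested.

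**Figure D3:**
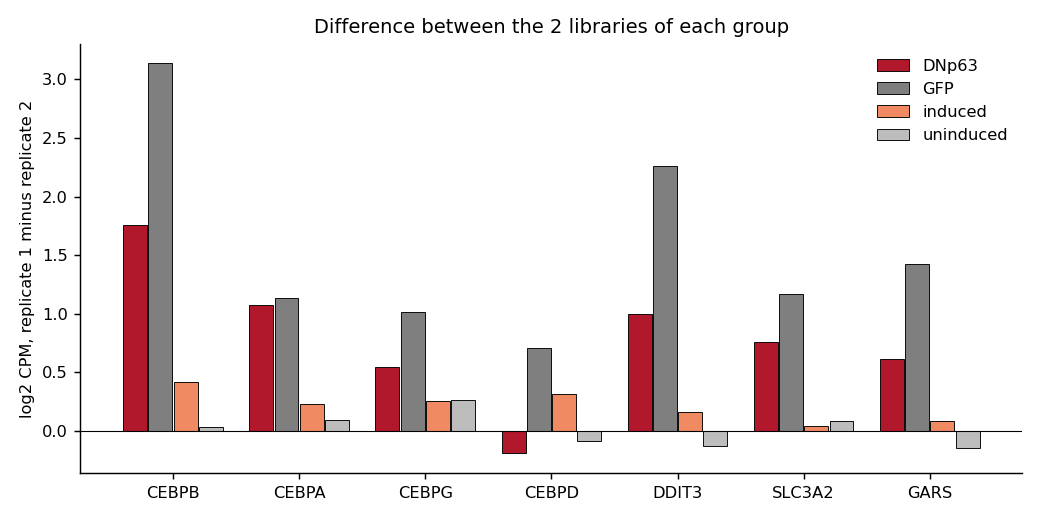
Difference in log2 CPM between replicate 1 and replicate 2 of each group for the 4 C/EBP genes and 3 stress response genes, 1 bar per group. In the DNp63 and GFP groups replicate 1 carries pLEX_306 and replicate 2 pLEX_307. CEBPB differs by 1.76 in DNp63 and 3.14 in GFP libraries, against 0.42 in induced and 0.03 in uninduced libraries.

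The genes most like each member were taken from the 9817 tested genes that average 5 CPM or more (9818 for CEBPA, whose own mean lies below that), by Pearson's r of log2 CPM over the 8 libraries. For CEBPD they were HABP4, an RNA- and hyaluronan-binding protein (r = 0.969, and 0.977 over the 6 libraries without pLEX_306), CCDC85B (0.934 and 0.918), REPIN1, a zinc finger protein (0.920 and 0.864), and RPL13, a ribosomal protein (0.916 and 0.818). HABP4 stood at 24.6 and 22.9 CPM in DNp63 libraries, against 41.8 and 38.3 CPM in GFP libraries, and at 39.0 and 34.2 CPM in induced libraries, against 25.2 and 26.0 CPM in uninduced libraries. The log2 differences of HABP4 were -0.75 ± 0.22 (SE) for DNp63 over GFP and 0.52 ± 0.21 for induced over uninduced. Because these genes were picked for their likeness to CEBPD in the same libraries, their values are a description with no test. RPL13 stood at 2941 and 2770 CPM in DNp63 libraries, against 5629 and 3864 CPM in GFP libraries. RPL13 has processed pseudogenes whose reads the counting could share.

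For CEBPB the most similar genes were GARS, a tRNA synthetase (r = 0.987), KIFC2, a kinesin (0.987), HSPA9, a mitochondrial chaperone (0.982), and FYN, a Src family kinase (0.982), and all 4 kept r of 0.925 to 0.965 without pLEX_306. For CEBPG they were SLC3A2, a subunit of amino acid transporters (0.981), CTAGE5 (0.979), DDIT3 (0.976) and KIFC2 (0.975), with r of 0.914 to 0.953 without pLEX_306. CTAGE5 has near-identical copies, so its counts are uncertain. For CEBPA they were VAPA (0.972), RHBDL1 (0.970), P2RX4 (0.967) and NPIPA1 (0.966), and r was 0.360 to 0.767 without pLEX_306, so that likeness rests on those 2 libraries. NPIPA1 belongs to a multigene family and its counts are also uncertain.

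**Figure D4:**
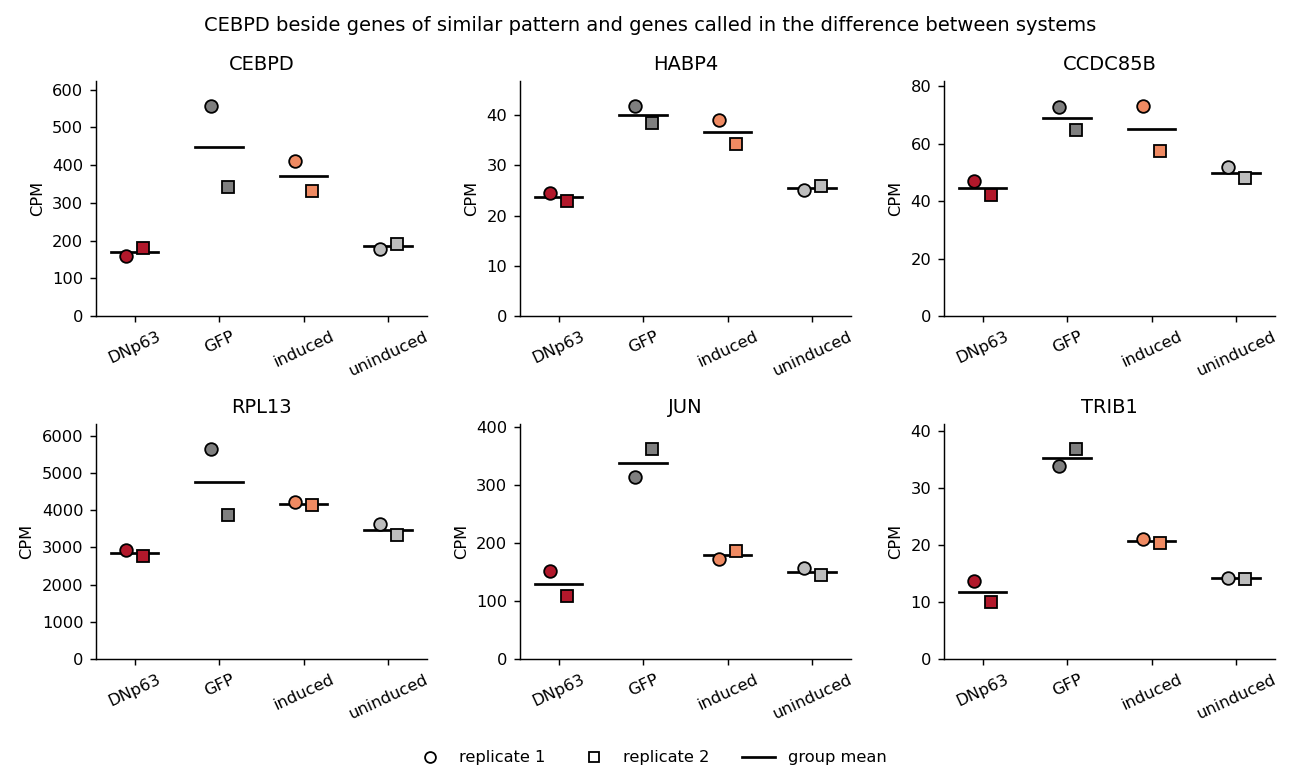
Level in CPM (linear axis from 0, scaled per panel) of CEBPD, of HABP4, CCDC85B and RPL13, which are among the 4 genes most like it over the 8 libraries, and of JUN and TRIB1, both called in the difference between systems. Circles are replicate 1, squares replicate 2 and bars group means. HABP4 lies at 24.6 and 22.9 CPM in DNp63 libraries, against 41.8 and 38.3 in GFP libraries.

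Genes that act with, upstream of or downstream of C/EBP proteins were read from 11 lists. They hold 118 distinct tested genes. Of these, 23 were called for DNp63 against GFP, where 8.16% of all tested genes were called. There were 2 called for induced against uninduced (0.284% of all genes), 3 for the difference between systems (0.545%) and 0 for uninduced against GFP (0.00813%). The medians of log2 fold changes over all tested genes were 0.01, -0.001, -0.01 and -0.01 in these comparisons. The lists were chosen with earlier results of these data known. Their counts are therefore a description, and an excess over the share of all genes was not tested.

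Among C/EBP relatives and zipper partners, 2 of 16 tested genes rose and 1 fell in DNp63 cells, with a list median of 0.08, and 0 were called in induced cells. FOSL2, an AP-1 subunit, stood at 469 and 399 CPM in DNp63 libraries, against 130 and 42.6 CPM in GFP libraries, and rose by 2.35 ± 0.38 on the log2 scale (edgeR adjusted p = 0.00516), with 3.34 without GFP replicate 1 and 1.73 without GFP replicate 2. ATF5, an amino acid stress factor, rose by 1.88 ± 0.41 (edgeR adjusted p = 0.0219), which was lost without either induced library (edgeR adjusted p = 0.0618 and 0.0614). The ATF5 value was 3.02 without GFP replicate 1 and 1.21 without GFP replicate 2. JUN, the AP-1 subunit that can pair with C/EBP proteins, stood at 152 and 109 CPM in DNp63 libraries, against 313 and 361 CPM in GFP libraries. It fell by 1.37 ± 0.20 on the log2 scale (edgeR adjusted p = 0.00275). In induced libraries JUN stood at 172 and 186 CPM, against 156 and 146 CPM in uninduced libraries, which was not called.

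Among regulators of C/EBP proteins, 0 of 14 rose and 1 fell in DNp63 cells (median -0.01), and 0 were called in induced cells. That gene was TRIB1, a pseudokinase that leads C/EBP-alpha to degradation. It stood at 13.7 and 10.1 CPM in DNp63 libraries, against 34.0 and 36.9 CPM in GFP libraries, and fell by 1.59 ± 0.26 on the log2 scale (edgeR adjusted p = 0.00442). It stood at 21.1 and 20.5 CPM in induced libraries, against 14.3 and 14.2 CPM in uninduced libraries, a log2 value of 0.55 ± 0.25 that was not called. The difference between systems was called for TRIB1 at 2.13 ± 0.35 (edgeR adjusted p = 0.0324) and for JUN at 1.62 ± 0.28 (edgeR adjusted p = 0.0374), and each call was lost when any of 5 of the 8 libraries was left out, with edgeR adjusted p up to 0.263 for TRIB1 and 0.298 for JUN.

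In the IL-6 and STAT3 list, a pathway that switches on CEBPB and CEBPD, 1 of 15 tested genes rose and 1 fell in DNp63 cells (median 0.08), and 0 were called in induced cells (median 0.18). JAK1, the kinase of IL-6 family receptors, rose by 1.24 ± 0.24 (edgeR adjusted p = 0.0115, and 0.0881 without GFP replicate 2). SOCS1, an inhibitor of JAK kinases, stood at 18.3 and 26.0 CPM in DNp63 libraries, against 75.7 and 38.3 CPM in GFP libraries, and fell by 1.34 ± 0.34 (edgeR adjusted p = 0.0396), a call lost when any of 6 libraries was left out (edgeR adjusted p up to 0.160). Of 18 NF-kB cytokine genes 4 could be tested, and 1 fell. That gene was PTX3, a secreted pattern recognition protein, at 0.286 and 3.10 CPM in DNp63 libraries, against 15.5 and 68.2 CPM in GFP libraries (log2 fold change -4.48 ± 0.84, edgeR adjusted p = 0.00589). Its value was -3.80 without DNp63 replicate 1, -7.13 without DNp63 replicate 2, -5.16 without GFP replicate 1 and -3.03 without GFP replicate 2.

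Of 12 tested glucocorticoid-responsive genes, 1 rose and 1 fell in DNp63 cells (median 0.31), and 2 rose in induced cells (median 0.18). SGK1, a serum- and glucocorticoid-induced kinase, rose in both. It stood at 25.4 and 59.0 CPM in DNp63 libraries, against 2.22 and 1.91 CPM in GFP libraries (4.37 ± 0.55, edgeR adjusted p = 0.00068, and 3.63 without DNp63 replicate 2). It stood at 9.76 and 8.26 CPM in induced libraries, against 0.402 and 1.07 CPM in uninduced libraries (3.42 ± 0.59, edgeR adjusted p = 0.0301, and 4.40 without uninduced replicate 2). KLF9, a zinc finger factor, fell by 1.36 ± 0.21 in DNp63 cells (edgeR adjusted p = 0.00358). MT2A, a metallothionein, stood at 1160 and 1132 CPM in induced libraries, against 289 and 199 CPM in uninduced libraries (2.23 ± 0.36, edgeR adjusted p = 0.0412). Both induced calls were lost when any of 5 libraries was left out, with edgeR adjusted p up to 0.343 for SGK1 and 0.842 for MT2A.

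Acute phase and innate defence genes were mostly too low to test, with 4 of 24 tested. Of these 2 rose in DNp63 cells and 0 were called in induced cells. LCN2, which encodes lipocalin-2, had 26 counts in DNp63 libraries and 0 in GFP libraries, which is at least 7.44-fold higher when the GFP group is set to a floor of 3 counts in sum. SLPI, a protease inhibitor of mucosal fluids, stood at 5.43 and 6.59 CPM in DNp63 libraries, against 1.48 and 0.212 CPM in GFP libraries (3.04 ± 0.88, edgeR adjusted p = 0.0453). Both calls were lost in single-library omissions, 6 of 8 for LCN2 (edgeR adjusted p up to 0.225) and 7 of 8 for SLPI (up to 0.296). The SLPI value was 4.70 without GFP replicate 1 and 2.00 without GFP replicate 2. The list median was 2.96, or 2.89 with LCN2 at its bound.

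Adipogenic, lung epithelial and keratinocyte genes, listed as possible C/EBP targets, moved in different directions in DNp63 cells, and 0 were called in induced cells. Whether C/EBP proteins control these genes here was not tested. Of 9 adipogenic and lipid genes, 2 rose and 1 fell (median -0.73). CD36, a fatty acid carrier, stood at 90.0 and 116 CPM in DNp63 libraries, against 17.7 and 3.81 CPM in GFP libraries (3.37 ± 0.51, edgeR adjusted p = 0.00376), with 4.75 without GFP replicate 1 and 2.53 without GFP replicate 2. FABP4, a fatty acid binding protein, had 124 counts in DNp63 libraries and 2 in GFP libraries, a ratio of 53.2 with a 95% counting interval of 14.4 to 444, and its call was lost in 7 of 8 single-library omissions (edgeR adjusted p up to 0.282). Most of these counts came from DNp63 replicate 1, at 31.7 CPM, against 2.52 CPM in replicate 2. LPL, lipoprotein lipase, fell by 1.13 ± 0.24 (edgeR adjusted p = 0.0164, and 0.0555 without GFP replicate 1).

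Of 15 lung epithelial genes 4 were tested, and 2 fell (median -0.83). FOXA2, a lung and liver factor, stood at 17.7 and 22.7 CPM in DNp63 libraries, against 109 and 217 CPM in GFP libraries (-3.01 ± 0.30, edgeR adjusted p = 0.000341), and its difference between systems was called at 2.30 ± 0.41 (edgeR adjusted p = 0.0379). ABCA3, a lipid transporter of surfactant, fell by 0.96 ± 0.24 (edgeR adjusted p = 0.0391), a call lost in 6 of 8 single-library omissions (edgeR adjusted p up to 0.122). Of 14 keratinocyte genes 3 were tested, and 2 rose (median 3.14). FLG, filaggrin, stood at 94.9 and 58.6 CPM in DNp63 libraries, against 2.22 and 13.8 CPM in GFP libraries (3.14 ± 0.52, edgeR adjusted p = 0.00515), with 2.47 without GFP replicate 1 and 5.08 without GFP replicate 2. KRT5, a basal keratin, rose by 8.53 ± 2.37 (edgeR adjusted p = 0.00641, and 0.0870 without GFP replicate 2). The value was 5.08 without DNp63 replicate 1 and 9.48 without DNp63 replicate 2.

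In the ATF4 and C/EBP-gamma list 2 of 23 genes rose in DNp63 cells and 0 fell, with a median of 0.67 and 21 positive values, and 0 were called in induced cells, with a median of -0.02 and 10 positive values. NUPR1, a stress-induced chromatin protein, rose by 1.99 ± 0.37 (edgeR adjusted p = 0.00976, and 0.0676 without GFP replicate 2), with a value of 1.24 without DNp63 replicate 1. WARS, a tRNA synthetase, rose by 1.84 ± 0.40 (edgeR adjusted p = 0.0208), a call lost in 4 of 8 omissions (edgeR adjusted p up to 0.104), with 1.19 without DNp63 replicate 1 and 2.62 without GFP replicate 1. The same list differed between the pLEX_306 and pLEX_307 libraries of both constitutive groups, and the part of that difference in the median was not tested. Among growth arrest partners 1 of 16 rose and 2 fell (median -0.08). SMARCA2, a chromatin remodeller that C/EBP-alpha binds, rose by 0.93 ± 0.18 (edgeR adjusted p = 0.0111). RBL2, a retinoblastoma family protein, fell by 0.89 ± 0.22 (edgeR adjusted p = 0.0358), and MYC fell by 0.91 ± 0.24 (edgeR adjusted p = 0.0435), both lost in 6 of 8 omissions (edgeR adjusted p up to 0.158 and 0.222).

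**Figure D5:**
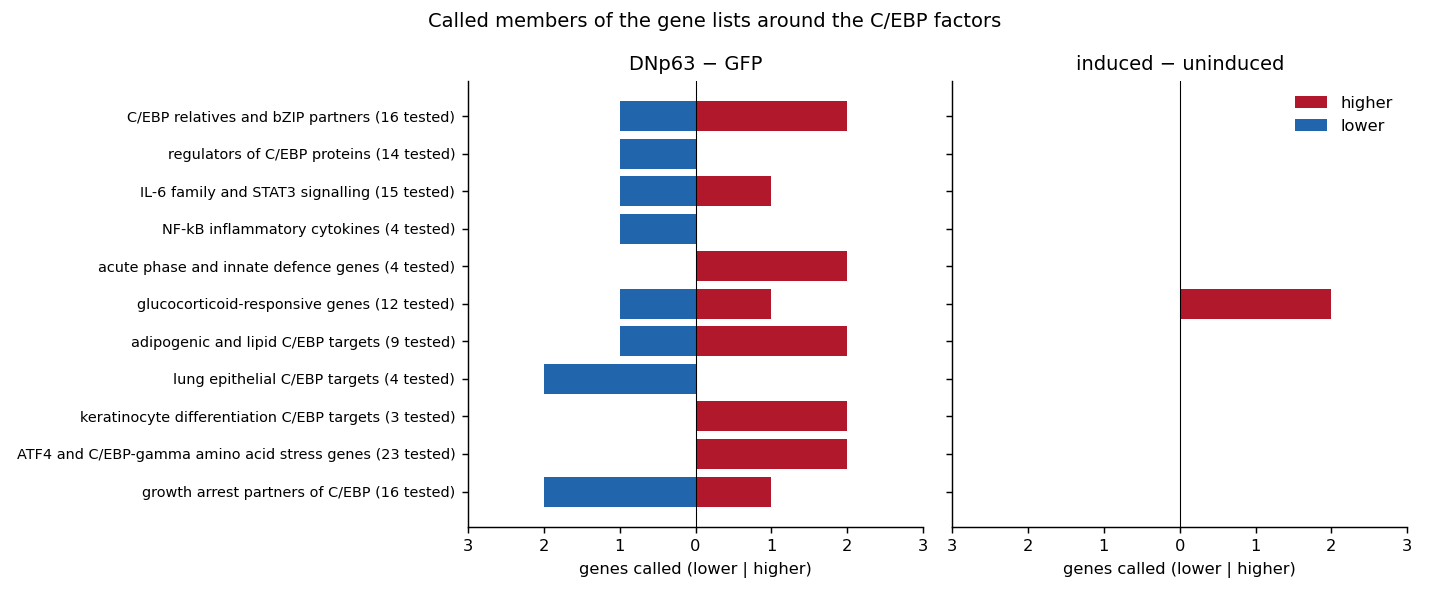
Number of genes called higher (right of 0) or lower (left of 0) in each of 11 lists around the C/EBP factors, for DNp63 minus GFP and for induced minus uninduced, with the number tested beside each name. In the induced comparison the only calls are the 2 glucocorticoid-responsive genes SGK1 and MT2A. The lists were chosen with earlier results of these data known, so the counts are a description.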

How the data were processed

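Gene counts of 8 LK2 libraries, 2 in each of 4 groups, were used as deposited. Per the labels' protocols, libraries were polyA-selected, directional and read from both ends. Per the submitters' processing notes, the authors used TopHat2 2.1, SAMtools, HTSeq and DESeq2 with hg19 (GRCh37). Neither notes nor labels state the annotation or filters. Groups come from the labels.

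Genes were kept by filterByExpr (minimum count 10), libraries scaled by TMM, and 1 mean per group was fitted over all 8 libraries with edgeR 4.0.16 (quasi-likelihood, legacy estimates, R 4.3.3). Tests were two-sided, with Benjamini-Hochberg adjustment over 12303 genes and calls at adjusted p below 0.05. The log2 CPM values use a prior count of 2. The 95% intervals of log2 fold changes are normal approximations from the SE. They can be narrower than the quasi-likelihood test would give, so calls rest on the test alone. Counting intervals and floors (3 counts) cover counting error only. Alternatives were other scaling, filters, spread estimates, DESeq2 1.42.0, a replicate block, each system alone and omitted libraries.

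Members and gene lists were chosen with earlier results of these data known. Genes named are the C/EBP genes and TP63, the called ones among the 4 smallest p per list and system, the 4 genes most like each member, and list members called in the difference between systems. Further named genes with uncalled values, such as DDIT3, come from the same rule, except the antisense genes CEBPB-AS1 and CEBPA-AS1, added as neighbours.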

Additional observations from a re-analysis of the deposited data

Results flagged for a closer look

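The difference between the systems, as induced minus uninduced less DNp63 minus GFP on the log2 scale, was flagged for these genes. On the inducible side it cannot be told apart from an effect of doxycycline. TP63, also among them, is the gene supplied by the vectors. For CEBPD the difference was 2.41, its libraries moved in opposite directions in the 2 systems, and it was not tested because CEBPD was chosen for it. For JUN it was 1.62 (edgeR adjusted p = 0.0374), for TRIB1 2.13 (edgeR adjusted p = 0.0324) and for FOXA2 2.30 (edgeR adjusted p = 0.0379), each lost when any of 5 of 8 libraries was left out. FOXA2 stood at 92.5 and 91.9 CPM in induced libraries, against 151 and 150.4 CPM in uninduced libraries. For TP63 the difference was -5.99 (edgeR adjusted p = 0.00378), lost without induced replicate 1 (edgeR adjusted p = 0.110) or 2 (0.0734), and it was -5.37 without DNp63 replicate 2 and -6.94 without GFP replicate 2. Among squamous markers it was -4.33 for KRT6A (edgeR adjusted p = 0.00554), lost in 3 of 8 omissions and at -5.30 without GFP replicate 2, and -3.45 for CALML3 (edgeR adjusted p = 0.0301), lost in 4 of 8 and at -4.50 without GFP replicate 1 and -2.60 without GFP replicate 2.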

How the results depend on the processing

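No alternative in scaling, filter, spread estimate or tool turned the direction of any C/EBP value, and DESeq2 size factors, DESeq2's own test and non-legacy estimates changed no call of CEBPA, CEBPB or CEBPG. Without a filter CEBPB passed the test for DNp63 over GFP (0.85, edgeR adjusted p = 0.00549) and for uninduced minus GFP (-1.63, edgeR adjusted p = 1.84e-08), and the cause was not tested. With a replicate block CEBPB was called for DNp63 over GFP at 1.30 (edgeR adjusted p = 0.0105), and no other member changed its call. Deviations of same-numbered libraries correlated at 0.22 in the constitutive and -0.03 in the inducible system over 12303 genes, with 2 pairs each. In the constitutive system the number marks the vector, and in the inducible system the libraries share only a number. Leaving out single libraries gave ranges of -0.57 to 0.78 for CEBPA in DNp63 over GFP, -0.10 to 0.16 in induced over uninduced and -0.73 to 0.62 in the difference. For CEBPB they were -0.25 to 3.16, -0.41 to 0.0073 and -3.34 to 0.066, and -2.53 to 0.62 for uninduced minus GFP. For CEBPD they were -1.73 to -1.01 in DNp63 over GFP, 2.02 to 2.73 in the difference and -1.59 to -0.88 for uninduced minus GFP. For CEBPG they were 0.12 to 1.15, -0.89 to 0.15 for the difference and -0.98 to 0.045 for uninduced minus GFP. Leaving out both libraries of a vector was added after seeing the data and has 1 DNp63 and 1 GFP library, so no test is given. Without pLEX_306 CEBPD was -0.92 for DNp63 over GFP, 1.93 for the difference and -0.88 for uninduced minus GFP, and without pLEX_307 it was -1.82, 2.83 and -1.58. Uninduced minus GFP without pLEX_306 was -0.011 for CEBPA, 0.62 for CEBPB and 0.036 for CEBPG, and without pLEX_307 it was -0.98 for CEBPG. The 23 calls in the lists became 44 without a filter, 39 with a replicate block, 8 in a fit of the constitutive system alone and 14 to 38 without single libraries. Over all genes the 1004 calls for DNp63 over GFP became 1791 without a filter, 275 in that system alone and 452 to 1438 without single libraries. The 35 induced calls became 242 without a filter, 87 with the block, 110 with DESeq2, 771 in that system alone and 2 to 104 without single libraries. The 67 calls in the difference became 558 without a filter, 270 with the block, 259 with DESeq2 and 0 to 446. The 1 call for uninduced minus GFP became 245 without a filter, 0 at a mean of at least 5 CPM, 57 with DESeq2 and 0 to 43. CEBPA rests on 11 to 23 counts per library, and this depth limits its precision.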
